A study of Mus musculus with 16 samples.

Results

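The 9 genes described here encode transcription factors of mesenchymal cells that are linked to bone morphogenetic protein (BMP) signaling. They are the zinc finger repressors *Snai1* and *Snai2*, the basic helix-loop-helix factor *Twist1*, the homeobox genes *Shox2*, *Msx1*, *Msx2* and *Prrx1*, the runt domain gene *Runx2* and the zinc finger gene *Gata6*. The 9 were picked by symbol out of the 56748 genes of the counts table, and all 9 had a row. They were chosen by role and with their measured differences between the plasmids already known, so that every difference between plasmids given for them is a description. How many of them passed the test across all genes is given only beside the share of all genes and with its dependence on the processing, and nothing is read from it.

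The counts come from RNA-Seq of TM4 cells, an established mouse line of Sertoli cell origin kept in medium with serum. Each well received 2.5 µg of plasmid with a lipid reagent 24 h after seeding, and RNA was isolated 24 h later. The plasmids were the empty vector pcDNA3.1-HA (EV, 6 samples), pcDgdf6Y with *gdf6Y*, the Y-chromosomal BMP-type growth factor gene of the turquoise killifish (5 samples), and pcDgdf6Ydel9 with a mutant *gdf6Y* that carries an in-frame deletion in the prodomain (del9, 5 samples). All samples were thus transfected, and the EV and del9 samples served as the controls. The labels do not say whether replicates were separate cultures, so the spread between samples may be technical.

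BMPs and some growth differentiation factors bind serine/threonine kinase receptors that phosphorylate Smad1, Smad5 and Smad9, and these enter the nucleus with Smad4. *Id* genes and the inhibitory Smads are textbook immediate targets of this pathway. In limb bud, craniofacial and neural crest mesenchyme, BMPs also act on *Msx1* and *Msx2*, and factors of the Snail and Twist families repress epithelial genes during epithelial to mesenchymal transition (EMT). For *gdf6Y* itself, the study's luciferase assay in medaka cells found activation of Smad3 and Smad9, and also of Smad2, relative to mutant variants.

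Between 21486850 and 26444903 reads per sample were counted on genes. The markers fixed for Sertoli cells were present only in part: 7 of 15 had a mean of at least 10 normalized counts, *Wt1* had no read in any sample, and 7, among them *Amh*, *Cldn11*, *Fshr* and *Nr5a1*, had means below 10. Of the 7 fibroblast markers 6 reached a mean of 10 and *Thy1* had no read, while 1 of 6 epithelial markers reached it and *Epcam* had no read. None of the 4 germ cell markers, 1 of 7 Leydig cell markers and 1 of 4 macrophage and blood markers did. The summed normalized counts of the 5 smooth muscle markers, of which *Myh11* had a mean below 10, were 8500 to 8847 with EV, 9183 to 9780 with *gdf6Y* and 8862 to 9665 with del9. The sums of the Sertoli markers were 6002 to 6349, 5560 to 5874 and 5704 to 6216, and those of the fibroblast markers were 127474 to 136913, 124485 to 138285 and 122882 to 131113. Each sum rests mostly on few genes. In EV samples the means were 4410 for the Sertoli marker *Inhbb*, 4530 and 4110 for the smooth muscle markers *Acta2* and *Tagln*, and 52455 and 68543 for the fibroblast markers *Col1a1* and *Col1a2*. The sums therefore do not measure cell identity. The part that shifts of these sums had in the differences below was not tested. In such bulk samples, fewer cells that express a gene cannot be told apart from less RNA of it per cell.

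All 9 genes were transcribed in TM4 cells, and no filter on low counts removed any of them. Their raw counts per sample ranged from 151 for *Msx2* to 11487 for *Prrx1*. Per exonic length, in RPKM (reads scaled to the joined length of all annotated exons of a gene and to library size), the levels in EV samples spanned from 1.96 to 31.1. This length joins the exons of all isoforms and was 1653 bases for *Twist1* and 16550 for *Prrx1*. The order and percentiles below therefore depend on the annotation, and isoforms in use were not measured. *Twist1*, which drives mesenchymal fate in the head and limb, stood highest with 31.1 ± 1.52 RPKM (SD, n = 6), followed by *Prrx1*, an early marker of limb bud mesenchyme, with 26.0 ± 0.499 RPKM (SD, n = 6). *Shox2*, needed for the proximal limb skeleton and the sinus node, had 20.1 ± 0.536 RPKM (SD, n = 6). *Snai2* followed with 16 ± 0.757 RPKM and *Snai1* with 13.5 ± 0.610 RPKM (SD, n = 6 each). *Runx2*, the osteoblast master regulator, was at 7.04 ± 0.308 RPKM (SD, n = 6). *Msx1* was at 2.74 ± 0.170 RPKM, *Msx2* at 2.18 ± 0.0982 RPKM and *Gata6*, a regulator of endoderm, heart and gonadal cells, at 1.96 ± 0.110 RPKM (SD, n = 6 each). Neighbours in this order did not overlap between EV samples except *Msx2* (2.09 to 2.33 RPKM) and *Gata6* (1.80 to 2.13 RPKM). The 3 lowest genes lay between the 29.8th and 36.4th percentile of all genes with a mean of at least 10 normalized counts, and *Twist1* at the 90.7th.

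**Figure D1:**
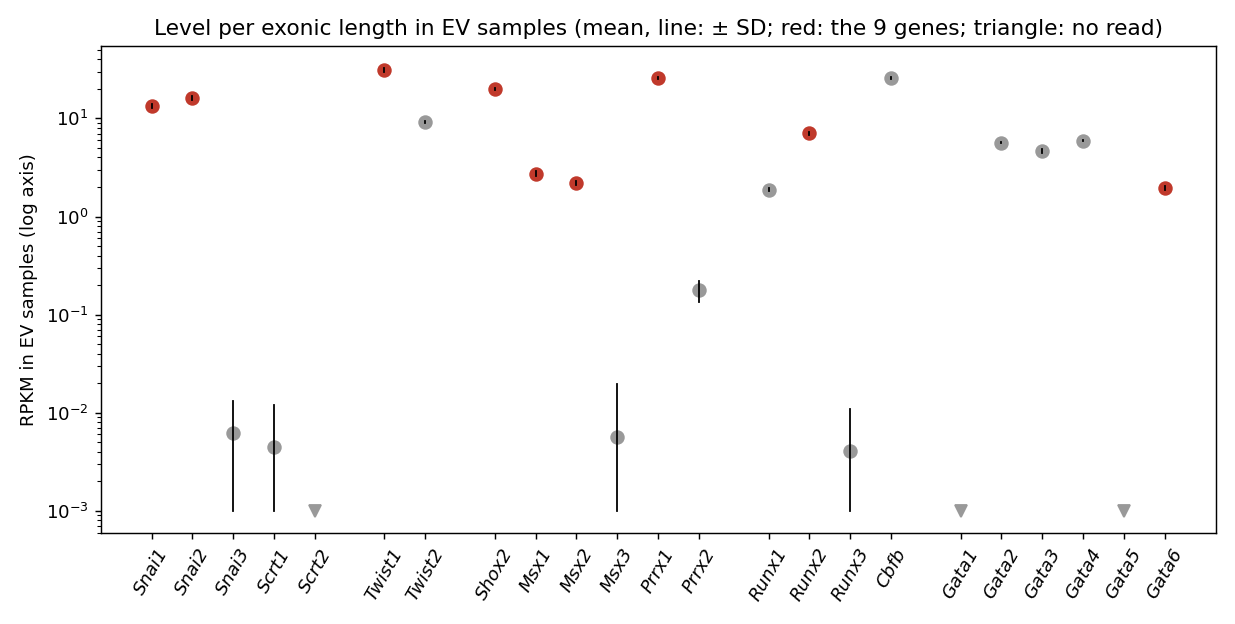
Level per exonic length in EV samples (RPKM, log axis; mean of 6 samples, line: ± SD) of the 9 genes (red) and of their family members and partners (grey), with triangles for genes without a read in EV samples. *Twist1* stands highest at 31.1 RPKM, and *Snai3*, *Scrt1*, *Msx3* and *Runx3* lie below 0.01 RPKM.

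In several of these families TM4 cells used some paralogs and not others. *Twist2* was transcribed at 9.13 RPKM in EV samples and *Runx1* at 1.87 RPKM. *Cbfb*, the shared partner of the Runx proteins, reached 25.8 RPKM. *Prrx2* stood far below *Prrx1*, at 0.177 RPKM. *Msx3*, *Runx3*, *Snai3* and *Scrt1* had mean normalized counts below 1 in EV samples, and *Scrt2*, *Gata1* and *Gata5* had no read there. Among the Gata factors, *Gata2* (5.67 RPKM), *Gata3* (4.66 RPKM) and *Gata4* (5.92 RPKM) exceeded *Gata6*.

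The 250 bases before the transcript start of *Snai1*, *Msx1* and *Shox2* are shown because the *gdf6Y* and EV samples of these 3 genes did not overlap, as described below, beside 2.61% of all genes tested and 5.24% of those with a mean of at least 10 normalized counts. They were read from GRCm39 at the canonical GENCODE transcript start, 5′ to 3′ on the strand of the gene. Capitals mark CACCTG or CAGGTG, the E-box form that Snail factors bind.

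Snai1 (chr2:167379863-167380112, plus strand): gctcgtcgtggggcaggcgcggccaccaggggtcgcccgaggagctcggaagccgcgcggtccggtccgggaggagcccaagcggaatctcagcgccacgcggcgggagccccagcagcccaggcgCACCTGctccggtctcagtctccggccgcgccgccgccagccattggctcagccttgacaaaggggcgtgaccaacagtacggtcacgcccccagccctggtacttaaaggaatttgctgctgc

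Msx1 (chr5:37981929-37982178, minus strand): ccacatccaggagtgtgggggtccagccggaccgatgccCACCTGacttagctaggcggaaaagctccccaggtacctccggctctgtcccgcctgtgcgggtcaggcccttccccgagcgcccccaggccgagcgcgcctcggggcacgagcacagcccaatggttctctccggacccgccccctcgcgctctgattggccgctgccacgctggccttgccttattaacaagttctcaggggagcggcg

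Shox2 (chr3:66889285-66889534, minus strand): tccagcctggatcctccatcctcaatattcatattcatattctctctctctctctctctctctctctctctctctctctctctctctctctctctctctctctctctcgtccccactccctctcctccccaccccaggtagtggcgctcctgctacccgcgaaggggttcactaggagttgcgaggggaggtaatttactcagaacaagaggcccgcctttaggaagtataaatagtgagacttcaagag

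*Snai1* held 1 such E-box, whose first base lay 124 bases before the start, and *Msx1* held 1 at 211 bases. The other 7 genes had no match, against 17.6% of the 21630 promoters of this length that hold one on either strand. The wider E-box CANNTG, which includes these forms and was present in 64.8% of promoters, occurred 3 times in *Snai2* and in no further gene of the 9. GGCGCC, the GC-rich palindrome that Smad1 and Smad5 bind in BMP response elements, had a match in *Gata6* only, 159 bases before the start, and in 9.33% of all promoters. The longer TGGCGCC or GGCGCCA (3.31% of promoters) and GTCTAGAC (0.240%) had no match in any of the 9. The GC content of the 3 printed windows was 70.8% for *Snai1*, 68.4% for *Msx1* and 51.6% for *Shox2*, beside a median of 53.2% over all promoters.

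To see how the 9 genes stood in cells with *gdf6Y*, its counts were set beside both controls. Against EV, *Snai1*, *Msx1*, *Shox2* and *Twist1* were between 8.32% and 21.0% higher on average in *gdf6Y*, the other 5 lay between -5.22% and 2.69%, and the largest log2 fold change was 0.27. In edgeR's quasi-likelihood test across all 26316 genes, 4 of the 9 passed an adjusted p of 0.05, all of them higher in *gdf6Y*, beside 5.08% of all genes tested (1.70% higher and 3.38% lower). Among the 12578 genes with a mean of at least 10 normalized counts, a level that all 9 genes reach, 10.5% passed. *Runx2* and *Prrx1* passed as well, both lower in *gdf6Y*, when the replicate number was a block. The calls over all genes then rose from 448 to 821 higher and from 890 to 1240 lower. The median log2 fold change was 0.04 over the 9 genes and -0.002 over all genes tested. Against del9, 2 of the 9 passed, *Snai1* and *Shox2*, both higher in *gdf6Y*, beside 1.01% of 25878 genes (0.599% higher and 0.410% lower) and 1.80% of those with a mean of at least 10. With the replicate number as a block, *Snai2* passed as well (3 of 9), and the calls over all genes rose from 155 to 289 higher and from 106 to 372 lower. Between the controls, 1 of 9 passed, *Runx2*, lower in del9 than in EV, beside 9.25% of 26226 genes (4.82% higher and 4.43% lower) and 18.2% of those with a mean of at least 10. With total counts in place of TMM, the 1263 higher and 1162 lower genes between del9 and EV became 863 and 1492. The count against EV was 3 without EV replicate 3, 4 or 6 or *gdf6Y* replicate 3 or 5 (*Twist1* lost), and the count against del9 was 1 with DESeq2, either stricter filter on low counts, or without *gdf6Y* replicate 3 or 5 or del9 replicate 1 (*Snai1* lost). Groups that did not overlap made up 1.29% of all genes tested for *gdf6Y* against del9 and 3.77% for del9 against EV. Since these comparisons were in view when the genes were chosen, nothing is read from these counts. The comparisons share samples pairwise and are not independent of each other.

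**Figure D2:**
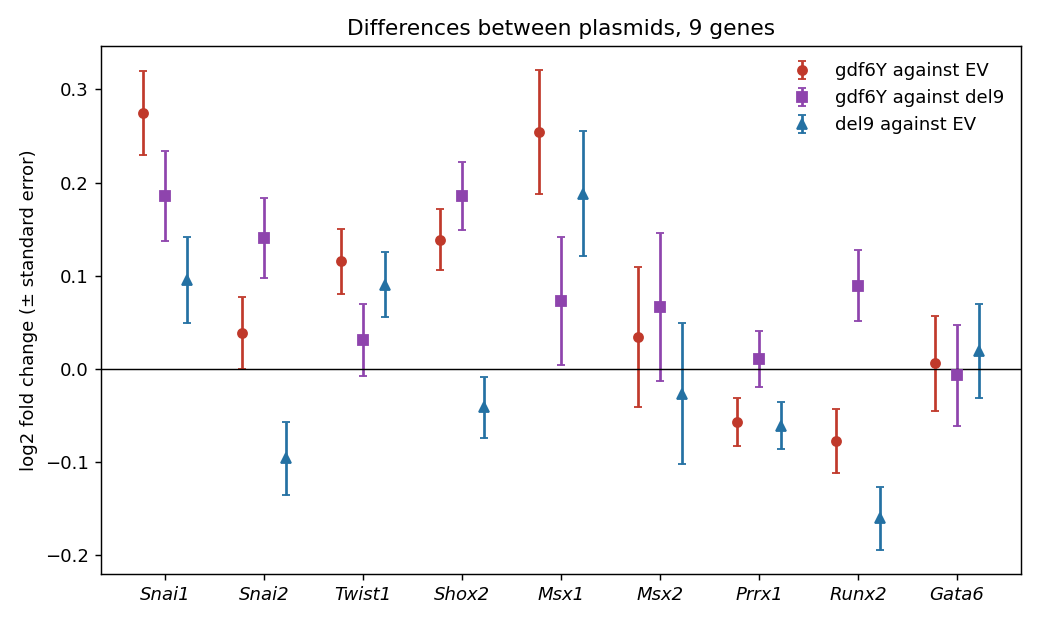
Log2 fold change (± SE from the edgeR fit) of the 9 genes in the 3 comparisons of plasmids, as a description. *Snai1* and *Shox2* lie above 0 in both comparisons of *gdf6Y*, *Msx1* lies at 0.25 and 0.19 against EV in *gdf6Y* and del9, and *Runx2* lies at -0.16 in del9 against EV.

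*Snai1* (ENSMUSG00000042821, chromosome 2 of GRCm39, 167380113 to 167384734), a repressor of E-cadherin, had the largest difference between *gdf6Y* and EV of the 9 genes. Its normalized counts were 668, 602, 661, 638 and 681 in the *gdf6Y* samples, 508 to 565 with a median of 547 in the EV samples, and 534, 586, 582, 574 and 595 in the del9 samples. Every *gdf6Y* sample lay above every control sample, and the del9 and EV samples overlapped. The mean was 650 ± 31.0 (SD, n = 5) in *gdf6Y*, 539 ± 24.4 (SD, n = 6) in EV and 574 ± 24.0 (SD, n = 5) in del9. On the log2 scale *gdf6Y* stood at 0.27 against EV (standard error, SE, 0.05) and 0.19 against del9 (SE 0.05), and the value for del9 against EV was 0.10. In the fits that left out 1 replicate, the change against del9 of *Snai1* lay between 0.16 and 0.21.

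*Snai2* (ENSMUSG00000022676, chromosome 16, 14523425 to 14527252), its paralog that marks neural crest cells on the move, did not follow this order. Its normalized counts were 912, 925, 930, 948 and 959 with *gdf6Y*, 846 to 955 (median 922) with EV and 841, 891, 811, 861 and 848 with del9. Of the *gdf6Y* samples 4 lay inside the EV range and 1 above it, and all 5 lay above all del9 samples. The mean was 935 ± 18.8 (SD, n = 5), 912 ± 43.2 (SD, n = 6) and 850 ± 29.4 (SD, n = 5). On the log2 scale *gdf6Y* stood at 0.04 against EV (SE 0.04) and 0.14 against del9 (SE 0.04), with del9 at -0.10 against EV.

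*Twist1* (ENSMUSG00000035799, chromosome 12, 34007645 to 34009828) had 1322, 1375, 1396, 1397 and 1373 normalized counts with *gdf6Y*, 1202 to 1339 (median 1262) with EV and 1264, 1468, 1270, 1345 and 1391 with del9. A *gdf6Y* sample fell inside the EV range, and the del9 samples spread across both groups. The mean was 1373 ± 30.6 (SD, n = 5) in *gdf6Y*, 1268 ± 62.1 (SD, n = 6) in EV and 1348 ± 85.6 (SD, n = 5) in del9. On the log2 scale *gdf6Y* stood at 0.12 against EV (SE 0.04), 0.03 against del9 (SE 0.04) and 0.09 for del9 against EV (SE 0.03).

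Among the homeobox genes, *Shox2* (ENSMUSG00000027833, chromosome 3, 66879058 to 66889284) was higher in *gdf6Y* than in either control. Its normalized counts were 1807, 1933, 1847, 1937 and 1974 with *gdf6Y*, 1661 to 1791 (median 1724) with EV and 1662, 1707, 1604, 1682 and 1718 with del9. No control sample reached the lowest *gdf6Y* sample, and the control groups overlapped. The mean was 1899 ± 69.7 (SD, n = 5) against 1727 ± 46.1 (SD, n = 6) in EV and 1675 ± 45.2 (SD, n = 5) in del9. In log2 units *Shox2* differed by 0.14 against EV (SE 0.03) and by 0.19 against del9 (SE 0.04). Over the alternative fits, these values of *Shox2* ranged from 0.12 to 0.16 and from 0.17 to 0.20. Exons of *Rsrc1* on the opposite strand overlap 467 exonic bases of *Shox2*, and the counting was stranded.

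*Msx1* (ENSMUSG00000048450, chromosome 5, 37977829 to 37981928), a homeobox repressor of tooth, palate and limb mesenchyme, had a higher mean with either gene-carrying plasmid than with EV. The normalized counts were 264, 248, 255, 252 and 262 with *gdf6Y*, 200.1 to 234 (median 213) with EV and 248, 231, 257, 233 and 254 with del9. The *gdf6Y* samples lay above all EV samples and overlapped the del9 samples, of which 2 fell inside the EV range. Its mean was 256 ± 6.71 (SD, n = 5), 215 ± 13.3 (SD, n = 6) and 245 ± 12.2 (SD, n = 5). On the log2 scale *gdf6Y* stood at 0.25 against EV (SE 0.07), 0.07 against del9 (SE 0.07) and 0.19 for del9 against EV (SE 0.07).

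*Msx2* (ENSMUSG00000021469, chromosome 13, 53620914 to 53627110), the closest relative of *Msx1*, showed no such separation. Its normalized counts were 171, 189, 172, 195 and 178 with *gdf6Y*, 169 to 188 (median 176) with EV and 181, 171, 172, 166 and 176 with del9. All 3 groups overlapped, with means of 181 ± 10.8 (SD, n = 5), 177 ± 7.95 (SD, n = 6) and 173 ± 5.68 (SD, n = 5). On the log2 scale *gdf6Y* stood at 0.03 against EV and 0.07 against del9, each with an SE of 0.08, the widest of the 9 genes.

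*Prrx1* (ENSMUSG00000026586, chromosome 1, 163041844 to 163142033), the most counted of the 9, had a lower mean with either gene-carrying plasmid than with EV. The normalized counts were 10067, 10001, 10240, 10513 and 10132 with *gdf6Y*, 10415 to 10972 (median 10569) with EV and 10210, 10356, 9803, 10372 and 10022 with del9. All del9 samples lay below all EV samples, and 1 *gdf6Y* sample fell inside the EV range. The mean was 10191 ± 201 (SD, n = 5) in *gdf6Y*, 10615 ± 204 (SD, n = 6) in EV and 10152 ± 241 (SD, n = 5) in del9. The change of *Prrx1* was -0.06 in log2 units against EV in *gdf6Y* and in del9 alike (SE 0.03 each), and 0.01 between *gdf6Y* and del9.

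*Runx2* (ENSMUSG00000039153, chromosome 17, 44806874 to 45125684) had 1569, 1396, 1367, 1542 and 1390 normalized counts with *gdf6Y*, 1434 to 1609 (median 1529) with EV and 1347, 1454, 1303, 1344 and 1404 with del9. The *gdf6Y* samples fell into both other groups, and 1 del9 sample lay inside the EV range. The mean was 1453 ± 94.8 (SD, n = 5), 1534 ± 67.1 (SD, n = 6) and 1370 ± 59.1 (SD, n = 5). The log2 fold change was -0.16 for del9 against EV (SE 0.03), between -0.18 and -0.14 in all 20 fits. For *gdf6Y* it was -0.08 against EV (SE 0.03) and 0.09 against del9 (SE 0.04).

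*Gata6* (ENSMUSG00000005836, 11051565 to 11086995 on chromosome 18) did not separate the groups. The normalized counts were 429, 436, 451, 427 and 484 with *gdf6Y*, 409.9 to 484 (median 444) with EV and 457, 472, 428, 465 and 421 with del9. The means of 445 ± 23.5 (SD, n = 5), 444 ± 25 (SD, n = 6) and 449 ± 23.1 (SD, n = 5) differed by less than the spread between replicates. The log2 fold changes were 0.01, -0.01 and 0.02, each with an SE of 0.05, and the sign against EV changed in 3 of the 20 fits.

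**Figure D3:**
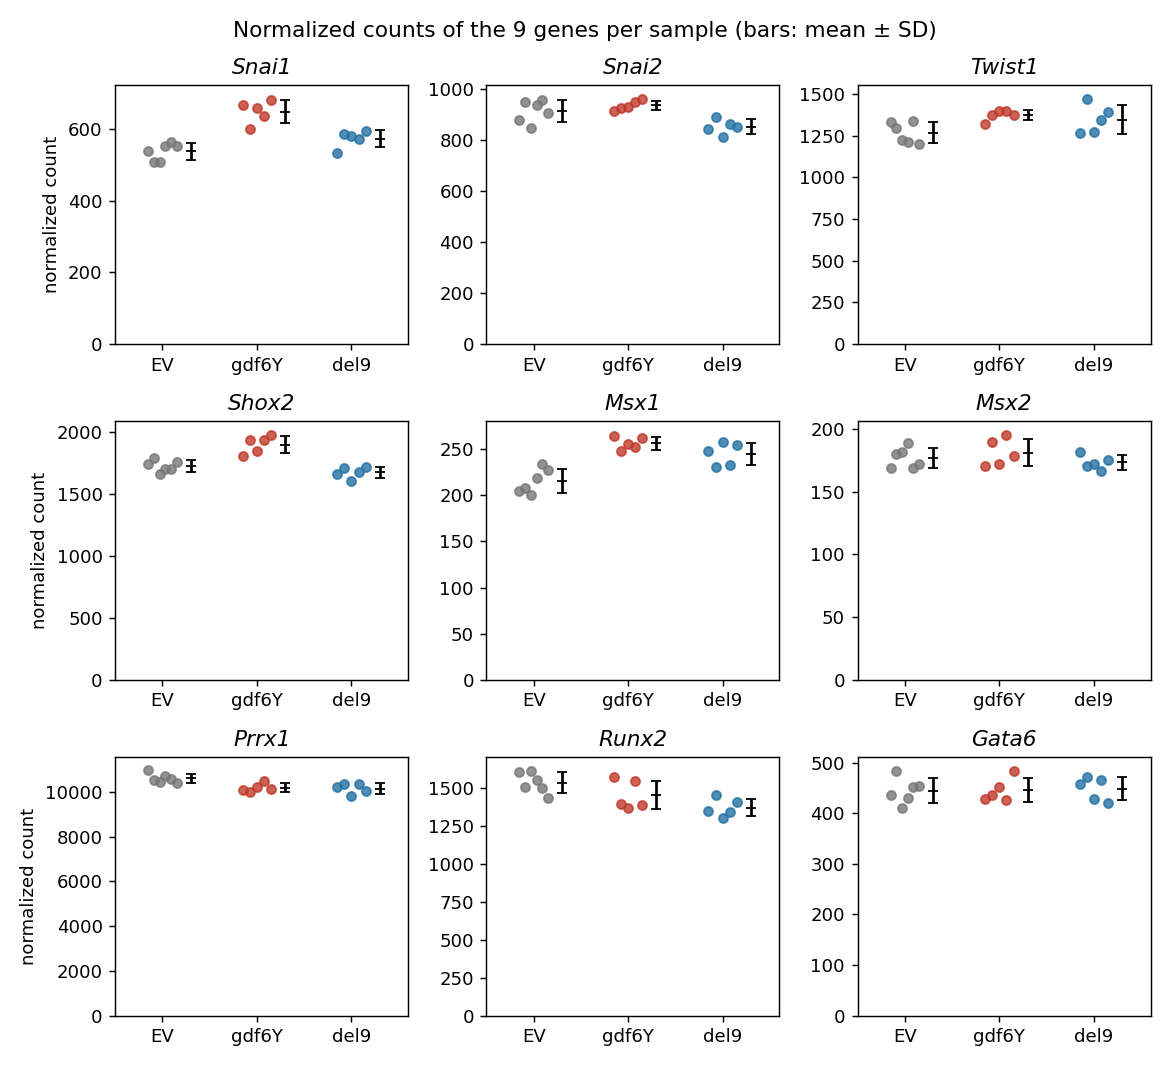
Normalized counts of the 9 genes in each sample (points) with the mean ± SD (bars) for EV (6 samples), gdf6Y (5 samples) and del9 (5 samples), axes from 0. The *gdf6Y* points of *Snai1* (602 to 681) and *Shox2* (1807 to 1974) lie above all control points, those of *Msx1* above all EV points, and *Gata6* and *Msx2* overlap in all groups.

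Across the 16 samples, the 9 genes did not vary as a block. Pearson's r of log2 CPM (counts scaled to library size) was 0.82 between *Msx1* and *Snai1*, 0.74 between *Shox2* and *Snai2*, 0.68 between *Runx2* and *Prrx1* and 0.64 between *Shox2* and *Snai1*. It was -0.77 between *Msx1* and *Prrx1* and -0.59 between *Msx1* and *Runx2*. For the pairs of close paralogs r was low, at 0.01 for *Msx1* and *Msx2* and 0.36 for *Snai1* and *Snai2*. *Msx2* had a mean of only 177 normalized counts and SDs within plasmids of 5.68 to 10.8. The part of counting noise in its r was not tested, so a value near 0 does not show that these paralogs vary apart. These values describe 16 libraries in 3 plasmid groups, which share their depth and their plasmid.

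Among 10781 genes with a mean of at least 50 normalized counts, the patterns most like that of *Snai1* over the 16 samples were those of *Id1* and *Atoh8* (r = 0.90 each) and *Nfkbia* (r = 0.89). For *Shox2* they were *Tmem65* (r = 0.91), *Klf10* (r = 0.89) and *Smad9* (r = 0.88), and for *Runx2* they were *Bmpr1a* (r = 0.91), *Pura* and *Pdlim5* (r = 0.90 each). *Msx1* came closest to *Hddc2* (r = 0.90), *Efemp2* (r = 0.89) and *Cenpa* (r = 0.88). *Snai2* came closest to *Vbp1* (r = 0.87), *Ccn2* (r = 0.86) and *Dnajb4* (r = 0.85). The best values were 0.91 for *Twist1* (with *Gnb1*) and 0.93 for *Prrx1* (with *Ect2*), and lower for *Gata6* (0.78, with *Yju2b*) and *Msx2* (0.74, with *Zbtb49*). The difference between plasmid groups was not removed from these values. Genes that differ between plasmids in the same direction therefore score high together, and no shared regulation is read from them.

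The size of these differences can be read beside the textbook BMP targets measured in the same samples. Of a list of 12 such genes, chosen with earlier results of these data known, 10 were tested. In *gdf6Y*, 6 of them rose against EV and against del9 and none fell. Over all genes tested, 1.70% were higher against EV and 0.599% against del9. The median log2 fold change of the 7 listed genes with a mean of at least 10 normalized counts was 0.72 and 0.65. *Id1*, an inhibitor of basic helix-loop-helix factors such as Twist1, rose by 0.90 log2 units against EV (SE 0.03), while *Id3* rose by 0.72 and *Id2* by 0.84. In del9 against EV, *Id1* was at 0.26 and *Id2* at 0.15 (edgeR adjusted p of 2.56e-10 and 0.0412). Only 1 of these 2 passed there with DESeq2. *Atoh8* had the largest value with 1.58 against EV (SE 0.11). The values of *Snai1* and *Msx1* against EV thus lay below those of all 6 BMP targets that rose, the smallest of which was 0.42 for *Smad7*, which the naming rule did not pick. They lay above that of *Bambi*, the remaining listed gene with a mean of at least 10. *Bambi* was at 0.13 against EV (SE 0.05) and 0.06 against del9 without passing, though its *gdf6Y* samples lay above all control samples.

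Paralogs and partners of the 9 genes were tested as a list of 16, of which 14 had a read. Against EV, *Gata4*, *Zfpm2* and *Gata2* passed, 2 lower and 1 higher in *gdf6Y*, beside 5.08% of all genes tested and 10.5% of those with a mean of at least 10. *Gata4*, which acts in gonadal somatic cells, was 822 to 840 with EV, 704 to 754 with *gdf6Y* and 757 to 824 with del9 in normalized counts. Its log2 fold change was -0.20 (SE 0.04, and an edgeR adjusted p of 9.98e-05). *Zfpm2*, the FOG2 cofactor of Gata4, fell by 0.12 on the log2 scale (SE 0.03, and an edgeR adjusted p of 0.00181). *Gata2* rose by 0.11 (SE 0.04, and an edgeR adjusted p of 0.0496) but passed in only 9 of 20 fits, and was lost among others without EV replicate 2, 3, 4 or 5 or *gdf6Y* replicate 1, 2, 3 or 5. Against del9, *Gata3* alone passed, with a log2 fold change of 0.22 (an edgeR adjusted p of 0.00352), its groups overlapped, and it did not pass with DESeq2, with either stricter filter on low counts or without *gdf6Y* replicate 1 or del9 replicate 2. *Gata3* was at 0.02 in *gdf6Y* against EV and at -0.20 in del9 against EV (an edgeR adjusted p of 0.00121), so the shift lay in del9. *Twist2* rose in del9 against EV by 0.15 log2 units (an edgeR adjusted p of 4.53e-04), and its values for *gdf6Y* were 0.08 against EV and -0.07 against del9. For *Runx1*, *Cbfb* and *Zfpm1* the log2 fold change in *gdf6Y* lay between -0.08 and 0.08 in either comparison, and for *Prrx2*, at about 23.0 normalized counts, it was 0.35 and 0.68 without passing.

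Of 14 other transcription factors of EMT, 12 were tested against EV, and 2 fell and none rose in *gdf6Y*. Over all genes tested, 3.38% fell and 1.70% rose, and 10.5% of those with a mean of at least 10 passed. *Zeb1*, like *Snai1* a repressor of epithelial genes, went from 2208 ± 126 (SD, n = 6) normalized counts with EV to 1976 ± 94.8 (SD, n = 5), a log2 fold change of -0.16 (SE 0.03, and an edgeR adjusted p of 7.85e-05). With del9 it was 2008 ± 89.7 (SD, n = 5). *Zeb1* was thus also lower in del9 against EV, at -0.14 (an edgeR adjusted p of 4.58e-04), and was at -0.02 in *gdf6Y* against del9. *Foxc1*, a forkhead factor of head and eye mesenchyme, was 3411 ± 159 (SD, n = 6) in EV, 3181 ± 74.1 (SD, n = 5) in *gdf6Y* and 2733 ± 203 (SD, n = 5) in del9. It thus fell against EV by 0.10 on the log2 scale (an edgeR adjusted p of 0.0208) and was higher by 0.22 against del9 (an edgeR adjusted p of 1.89e-08). The fall against EV no longer passed without EV replicate 1 or 4 or without *gdf6Y* replicate 2 or 3. *Hmga2*, a chromatin protein, was the other gene that passed against del9, at -0.18 (an edgeR adjusted p of 9.47e-07), but not with DESeq2 or either stricter filter, and its groups overlapped. In del9 against EV *Hmga2* was at 0.24 (an edgeR adjusted p of 3.95e-19), and in *gdf6Y* against EV at 0.06. *Zeb2*, *Tcf3*, *Tcf4*, *Tcf12* and *Sox4* did not pass in either comparison of *gdf6Y*. In del9 against EV, *Tcf3* was at 0.15 (an edgeR adjusted p of 8.19e-06) and *Tcf4* at -0.12 (an edgeR adjusted p of 0.00285). Of the 12 factors tested between the controls, 2 rose and 3 fell in del9, beside 4.82% and 4.43% of all genes tested. Of those with a mean of at least 10, 18.2% passed there.

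Of 40 further limb bud and mesenchyme factors, 27 were tested against EV and 28 against del9, and 0 passed in either comparison in edgeR's test or with DESeq2. At an unadjusted p below 0.05 there were 4 against EV and 2 against del9 (edgeR), and 2 in each with DESeq2. The 0 against EV became 1 with either stricter filter on low counts. Over all genes tested, 5.08% passed against EV and 1.01% against del9. Of the factors tested, 16 had a mean of at least 10 normalized counts, among them *Tbx3*, *Tbx15*, *Tbx18*, *Osr1* and *Meis2*. Their median log2 fold change was 0.01 against EV and 0.07 against del9. Between the controls, *Tbx3* was lower in del9, with a log2 fold change of -0.17 (an edgeR adjusted p of 0.00256).

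Genes used as readouts of EMT include both epithelial and mesenchymal genes, which are read in opposite directions. Counts of higher and lower genes over this list therefore give no direction of EMT. Of 21 such genes, 19 were tested against EV, with 1 higher and 3 lower in *gdf6Y*, beside 1.70% and 3.38% of all genes tested. Of all genes with a mean of at least 10, 10.5% passed. *Vim*, the mesenchymal intermediate filament vimentin, rose by 0.12 log2 units (SE 0.02, and an edgeR adjusted p of 9.58e-05) and was at 0.18 in del9 against EV. *Tnc*, the matrix protein tenascin C, fell by 0.24 (SE 0.03, and an edgeR adjusted p of 1.88e-11) and also against del9, by 0.16 (an edgeR adjusted p of 0.00102). Against del9 the groups of *Tnc* overlapped, and it did not pass with DESeq2, with either stricter filter on low counts or without del9 replicate 2. *Tjp1*, a tight junction scaffold, fell by 0.19 (an edgeR adjusted p of 5.74e-08). It was also at -0.10 in del9 against EV (an edgeR adjusted p of 0.00462, groups overlapping), and at -0.08 in *gdf6Y* against del9 without passing. *Fn1*, encoding fibronectin, was at -0.19 (an edgeR adjusted p of 1.51e-12), but its groups overlapped and it did not pass with DESeq2. *Fn1* was at -0.14 in del9 against EV (an edgeR adjusted p of 2.46e-07, groups overlapping), and at -0.05 in *gdf6Y* against del9 without passing. *Postn*, named because only 2 genes of the list passed against del9, was at 0.35 there (an edgeR adjusted p of 3.34e-04), but its groups overlapped and it did not pass with DESeq2 or either stricter filter. In *gdf6Y* against EV *Postn* was at 0.12. In del9 against EV it was at -0.23 (an edgeR adjusted p of 0.0184), again not passing with DESeq2 or either stricter filter. The epithelial genes that Snail factors repress were near absent in TM4 cells: *Cdh1*, encoding E-cadherin, had at most 3 reads per sample and *Epcam* none, so that a decrease of these was not detectable. *Cdh2*, encoding N-cadherin, had log2 fold changes of 0.01 and -0.03.

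Of 15 osteoblast genes that lie downstream of *Runx2*, 12 were tested against EV, and *Phex* was lower in *gdf6Y* with a log2 fold change of -0.15 (SE 0.04, and an edgeR adjusted p of 0.0115). It passed in 12 of 20 fits, and not with DESeq2, either stricter filter, or without EV replicate 1, 3 or 4 or *gdf6Y* replicate 2 or 5. Over all genes tested, 5.08% passed against EV. Of the 14 tested against del9, 0 passed in edgeR's test or with DESeq2, and 1 and 0 had an unadjusted p below 0.05. *Sp7*, the next factor in the osteoblast cascade, had at most 3 reads per sample and *Bglap* at most 2, while *Col1a1* was counted at a mean of 51516 and changed by -0.02 and 0.04 in log2 units.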

How the data were processed

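RNA-Seq counts of 16 TM4 samples (6 EV, 5 *gdf6Y*, 5 del9) were used. The authors deposited whole-number counts per gene without normalization. Per the study's methods, UMI-tagged reads from poly(A) libraries of 300 ng RNA were aligned with STAR 2.7.10a to GRCm39 and Ensembl genes, PCR duplicates were removed with UMI-tools, and uniquely mapped reads were counted on their strand with featureCounts 2.0.3, so reads shared between genes were lost. Symbols, positions and exonic lengths came from GENCODE vM39 (56017 of 56748 identifiers matched).

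Genes counted at least 1 time in either plasmid group were scaled with TMM and compared, 2 plasmids per model, with edgeR 4.0.16 in R 4.3.3 (quasi-likelihood test, Benjamini-Hochberg, threshold 0.05). Standard errors came from the fold change and the test statistic. They did not follow the spread of each gene between replicates. *Phex* and *Gata4* had SDs of 85.6 and 6.04 normalized counts in EV samples, at means of 816 and 831. Their SEs against EV were 0.04 each. Neither these SEs nor the adjusted p values measure a single gene's spread between replicates. Normalized counts are scaled to the mean effective library. RPKM was computed from them and the exonic length. Correlations used log2 CPM with a prior count of 2.

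The 9 genes and the lists were chosen with earlier results of these data known. Named besides them are up to 4 genes per list with the smallest adjusted p and a mean of at least 10 normalized counts, paralogs at that level, and the 3 most alike genes. The steps were tested on simulated counts laid out as *gdf6Y* against EV: of 50 genes each, 40 were recovered at a fold of 1.25, 34 at 0.8, 49 at 2 and 49 at 0.5, and 35 of 207 calls over 24760 genes were false (16.9%). This share exceeds what a threshold of 0.05 allows, so the edgeR adjusted p was liberal there, and calls near the threshold are weak. All simulated folds were larger changes than those of the 9 genes (at most 1.21, *Snai1* against EV). Recovery at the size of their differences was therefore not tested. Same-numbered *gdf6Y* and del9 samples deviated together over 11899 genes (r from 0.145 to 0.180 in 5 pairs), as did those of *gdf6Y* and EV (r from 0.077 to 0.234). Blocked results are therefore given for both comparisons where they change a call of the 9 genes. Depth was 21486850 to 26444903 reads. Alternatives were DESeq2 1.42.0, other scalings and filters, all groups in 1 model, the replicate block and each replicate left out. Some results for single genes of the limb bud and osteoblast lists, stricter filters included, are not reported here.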

Additional observations from a re-analysis of the deposited data

Results flagged for a closer look

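Samples far from the others of their plasmid were looked for by the gap criterion of Dixon (95% level: 0.625 for 6 samples, 0.710 for 5) in the normalized counts of the 9 genes. The criterion picked 0 of the 27 groups of values, where chance gives about 1 in 20 (1.35 here).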

How the results depend on the processing

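The log2 fold changes of the 9 genes moved by less than 1 SD between replicates in all 504 alternatives run. For *gdf6Y* against EV, the calls over all genes changed from 448 higher and 890 lower to 821 and 1240 with the replicate block, under which *Runx2* and *Prrx1* also passed as lower (*Prrx1* with DESeq2 too). There, 4 of 5 same-numbered pairs correlated above 0.1 and 3 of 5 samples correlated best with their own number. The mean r of these pairs was 0.154, beside 0.162 for *gdf6Y* against del9. Whether same-numbered samples share more than a number is not given by the labels. Leaving out each replicate gave 235 (without *gdf6Y* replicate 5) to 718 (without *gdf6Y* replicate 1) higher genes and 559 to 1033 lower genes, and 289 higher without *gdf6Y* replicate 3. For *gdf6Y* against del9, 155 higher and 106 lower became 48 and 33 with DESeq2, 26 and 19 with filterByExpr, 25 and 19 with at least 10 counts in every sample, and 289 and 372 with the block, and 181 were lower with all 3 groups in 1 model. Leaving out each replicate gave 94 (without del9 replicate 2) to 243 (without del9 replicate 1) higher and 66 to 198 lower genes, and 197 lower without *gdf6Y* replicate 1. Of the fixed lists, 11 genes passed against del9, 7 with DESeq2 or either filter and 18 with the block. Between the controls, the block gave 1592 higher and 1404 lower genes, and *Msx1* passed as higher in del9 in 7 of 20 fits, the block among them, *Twist1* as higher in 3, *Prrx1* as lower in 5 and *Snai2* as lower in 1. For the named list genes, 549 of 591 alternatives kept direction and side of the threshold, 36 lost it, 6 gained it and 0 reversed. The causes were not tested. The standard error of 0.08 for *Msx2* limits what could be seen for the least counted of the 9 genes.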
